A study of Mus musculus with 12 samples.

Results

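This account covers the mouse genes whose symbols are exactly Zfp followed by 3 digits, together with Zik1, the zinc finger protein that interacts with hnRNP K. Of the 18193 genes with a value, 264 met that rule, and they are called the members below. Most encode proteins that contact DNA through tandem C2H2 zinc fingers. Many also carry a KRAB domain, which recruits the corepressor Trim28 (KAP1) and, through it, the H3K9 methyltransferase Setdb1, to silence transposable elements and selected genes. Such genes lie in clusters of similar copies, and their bodies are known to carry H3K36 trimethylation, the mark that Setd2 places. The mark itself was not measured here, and of the 261 members placed in gene order 154 had another member within 5 protein-coding genes.

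The samples were yolk sacs of Hypb-/- (ko) and Hypb+/+ (wt) embryos, Hypb being an older name of Setd2. The 4 groups were ko and wt at E10.5 and ko and wt at E9.0, where E stands for embryonic day, all of strain 129Sv/C57BL/6 and with no treatment. Each group had 3 Affymetrix Mouse Genome 430 2.0 arrays, and each array was hybridised with the RNA of 4 pooled yolk sacs of 1 genotype. The labels do not say which part of the gene was deleted, and a yolk sac is a whole tissue of several cell types, so p-values measure the spread between pools. Per the series' design text, E9.0 was chosen because the mutants then showed little visible phenotype, and E10.5 because it precedes their death.

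All levels below are log2 expression values, and all changes are differences of log2 values from a limma fit over all 12 arrays, in which a gene was called when its Benjamini-Hochberg adjusted p over all genes was under 0.05. Setd2, the targeted gene, read 7.77, 7.81 and 8.07 in the E10.5 ko pools against 8.77, 8.70 and 8.66 in wt, a change of -0.83 (adjusted p = 0.00294). At E9.0 it read 7.54, 7.99 and 7.53 in ko pools against 9.08, 9.03 and 8.83 in wt, a change of -1.29 (adjusted p = 0.00207). Every ko pool was below every wt pool at both stages. Visceral endoderm markers, which define the yolk sac's outer layer, averaged 12.5 to 12.6 per array in E10.5 ko pools against 12.7 in wt, and 12.6 to 12.7 in E9.0 ko pools and in wt. Replicate 3 stood apart at both stages. Its arrays at E9.0 showed a difference between the spike-in controls BioC and BioB of -0.10 in ko and -0.02 in wt, against 1.42 to 1.53 on the other arrays. The rise from the 5' to the 3' probe sets of the DapX control was 1.53 to 1.87 on the replicate 3 arrays against 1.19 to 1.44 on the others.

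In knockout yolk sacs at both stages, 7 members were lower and 1 was higher. The 7 were Zik1, Zfp672, Zfp850, Zfp473, Zfp760, Zfp932 and Zfp983, and the 1 was Zfp451, a SUMO ligase. Over all genes 0.407% were lower at both stages and 0.247% were higher at both. No member was called in opposite directions. The first-listed promoter of 5 of these genes is printed here, 4 with lower transcripts and Zfp451 with higher ones, so that the letters upstream of the affected genes can be compared. Each runs 5′ to 3′ over the 300 bases from 250 before to 50 after the gene's start, from RefSeq on GRCm38.p6. Capitals mark matches, on either strand, to the GC box GGGCGG, to the letters CCAAT of the CCAAT box, to the TATA box form TATAAA, or to AAGATGG from the YY1 motif. No match overlapped another in the windows printed. Zik1 lies on the minus strand at chr7:10495332-10495631, Zfp850 on the minus strand at chr7:28014066-28014365, Zfp760 on the plus strand at chr17:21707491-21707790, Zfp983 on the plus strand at chr17:21650361-21650660 and Zfp451 on the minus strand at chr1:33814546-33814845.
Zik1: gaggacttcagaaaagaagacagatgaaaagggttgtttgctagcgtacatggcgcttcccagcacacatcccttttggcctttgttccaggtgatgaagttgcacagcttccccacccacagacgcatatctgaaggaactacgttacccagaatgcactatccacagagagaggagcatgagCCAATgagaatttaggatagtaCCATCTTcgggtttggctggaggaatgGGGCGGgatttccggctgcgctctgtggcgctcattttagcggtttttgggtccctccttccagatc
Zfp850: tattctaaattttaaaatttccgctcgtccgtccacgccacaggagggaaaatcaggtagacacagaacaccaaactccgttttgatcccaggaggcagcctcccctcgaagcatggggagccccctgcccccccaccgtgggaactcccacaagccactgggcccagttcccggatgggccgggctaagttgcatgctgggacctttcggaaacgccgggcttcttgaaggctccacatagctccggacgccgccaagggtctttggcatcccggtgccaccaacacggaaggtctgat
Zfp760: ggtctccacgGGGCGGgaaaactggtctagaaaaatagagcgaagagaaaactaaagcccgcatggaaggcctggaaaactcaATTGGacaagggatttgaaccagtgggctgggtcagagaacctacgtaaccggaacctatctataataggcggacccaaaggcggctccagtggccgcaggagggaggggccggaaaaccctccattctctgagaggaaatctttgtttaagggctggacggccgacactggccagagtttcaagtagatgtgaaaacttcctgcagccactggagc
Zfp983: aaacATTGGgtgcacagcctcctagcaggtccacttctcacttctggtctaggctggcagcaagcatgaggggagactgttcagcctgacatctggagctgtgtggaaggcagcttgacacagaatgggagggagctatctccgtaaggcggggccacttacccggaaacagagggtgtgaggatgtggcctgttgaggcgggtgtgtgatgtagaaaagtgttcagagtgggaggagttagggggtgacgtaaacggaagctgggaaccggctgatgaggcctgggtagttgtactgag
Zfp451: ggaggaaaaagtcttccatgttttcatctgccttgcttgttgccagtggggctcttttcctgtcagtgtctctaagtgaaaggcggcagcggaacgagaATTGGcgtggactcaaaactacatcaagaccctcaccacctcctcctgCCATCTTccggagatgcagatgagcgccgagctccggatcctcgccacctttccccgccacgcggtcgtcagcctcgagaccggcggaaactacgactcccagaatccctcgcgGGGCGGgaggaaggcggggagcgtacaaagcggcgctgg

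These windows held 10, 17, 12, 7 and 24 CG pairs in the order printed. Zik1 and Zfp451 each held 1 match to GGGCGG, 1 to CCAAT and 1 to AAGATGG. Zfp760 held 1 match to GGGCGG and 1 to CCAAT, Zfp983 held 1 to CCAAT, and Zfp850 held none. Of the genes lower at both stages whose windows are not printed, Zfp473 held 23 CG pairs and 1 match to GGGCGG. Zfp672 held 18 CG pairs, 3 matches to GGGCGG and 1 to CCAAT, and Zfp932 held 9 CG pairs and 1 match to CCAAT. Of the 264 members 218 had a promoter entry, with a median of 16 CG pairs against 7 over all 27025 promoters. No filter for measured or protein-coding genes was applied to the 27025, so they are not a matched background. GGGCGG was in 49.5% of the members' promoters against 35.9% of all promoters, and CCAAT in 48.2% against 37.9%. TATAAA was in 6.42% against 14.2%, and AAGATGG in 10.1% against 6.48%. Among the 23 members lower in either knockout comparison, the median was 11 CG pairs, against 16 in the 188 members called in neither, and CCAAT was in 56.5% of them against 46.3%. The 7 higher members with a promoter entry had a median of 19 CG pairs, and CCAAT was in 5 of them (71.4%). GGGCGG was in 52.2% of the lower members, 42.9% of the higher ones and 49.5% of those called in neither. In the same order AAGATGG was in 4.35%, 14.3% and 10.6%, and TATAAA in 4.35%, 0% and 6.91%. A match is a string of letters and not a site of binding.

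Zik1 showed the largest fall among members at both stages. It read 4.91, 5.30 and 5.23 in E10.5 ko pools against 7.08, 6.89 and 7.26 in wt. At E9.0 it read 5.07, 5.62 and 5.12 in ko pools against 6.48, 6.69 and 6.55 in wt. The ko and wt pools did not overlap at either stage. The change was -1.93 at E10.5 (SE 0.16, adjusted p = 4.37e-05), a 3.81-fold lower level, and -1.30 at E9.0 (SE 0.16, adjusted p = 0.00252), a 2.47-fold lower level. A second probe set of Zik1 changed in the same direction by -0.94 and -0.50 at E10.5 and E9.0. Replicates 1 and 2 alone gave -1.88 at E10.5 and -1.24 at E9.0, and replicate 3 alone gave -2.03 and -1.43. Both calls were kept whichever of the 12 arrays was left out.

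Zfp672 had the fall next in size at E9.0 and Zfp850 at E10.5. Zfp672 read 5.77, 6.19 and 6.22 in E10.5 ko pools against 7.01, 6.89 and 6.68 in wt, and 5.52, 5.72 and 5.34 in E9.0 ko pools against 6.63, 6.83 and 6.81 in wt. The pools did not overlap, and the change was -0.80 at E10.5 (adjusted p = 0.00533) and -1.23 at E9.0 (adjusted p = 0.00227), each kept without any 1 array. Zfp850 read 5.46, 4.86 and 5.25 in E10.5 ko pools against 6.79, 6.45 and 6.64 in wt, and 5.73, 6.14 and 5.68 in E9.0 ko pools against 6.78, 6.77 and 6.80 in wt. Its change was -1.44 at E10.5 (adjusted p = 0.000251) and -0.93 at E9.0 (adjusted p = 0.0197), again with no overlap of pools.

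Zfp473, whose human counterpart works in histone mRNA 3′ end processing, read 6.72, 6.92 and 6.51 in E10.5 ko pools against 7.69, 7.97 and 7.45 in wt. At E9.0 it read 6.01, 6.30 and 6.21 in ko against 6.78, 6.96 and 7.19 in wt. These pools did not overlap, and the changes were -0.99 (adjusted p = 0.00247) and -0.80 (adjusted p = 0.0291). Zfp760 read 6.64, 6.67 and 6.50 in E10.5 ko against 7.54, 7.50 and 7.81 in wt, and 6.68, 6.64 and 6.31 in E9.0 ko against 7.35, 7.24 and 7.06 in wt. The changes were -1.01 (adjusted p = 0.000586) and -0.67 (adjusted p = 0.0282), with every ko pool below every wt pool. Zfp932 read 6.98, 7.17 and 6.85 in E10.5 ko against 7.64, 7.65 and 7.53 in wt, again without overlap, and changed by -0.61 at E10.5 (adjusted p = 0.00696) and -0.56 at E9.0 (adjusted p = 0.0344).

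Zfp983, a dim member whose log2 changes RMA compresses, read 4.14, 3.89 and 4.20 in E10.5 ko pools against 4.60, 4.45 and 4.56 in wt. Its changes of -0.46 (adjusted p = 0.024) and, at E9.0, -0.51 (adjusted p = 0.0467) lay nearest the threshold of the 7. The member that was higher, Zfp451, read 8.56, 8.51 and 8.56 in E10.5 ko pools against 7.91, 7.72 and 7.90 in wt, and 8.25, 8.24 and 8.14 in E9.0 ko pools against 7.62, 7.75 and 7.55 in wt. The pools stood apart at both stages, with changes of 0.70 (SE 0.09, adjusted p = 0.000688) and 0.57 (SE 0.09, adjusted p = 0.0175). Its 4 other probe sets disagreed, with changes from -0.24 to 0.29 at E10.5 and from -0.22 to 0.37 at E9.0, so the rise rests on the brightest probe set.

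**Figure D1:**
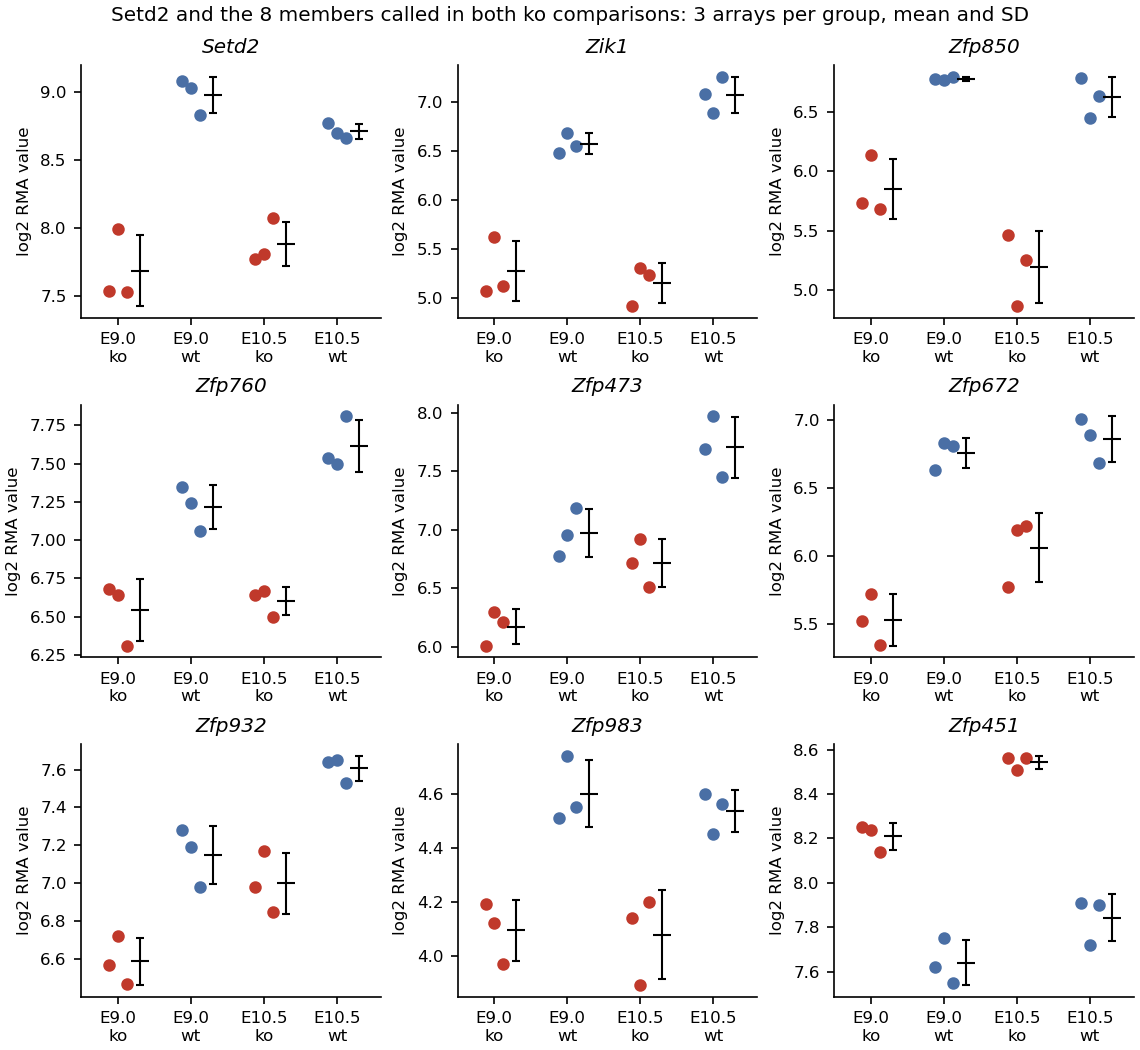
Log2 RMA value (vertical axes, each panel on its own range) of Setd2 and of the 8 members called in both knockout comparisons, with 1 point per array (ko red, wt blue) and the group mean and SD beside the points (n = 3). The ko and wt points of a stage do not overlap in any panel, and Zik1 shows the widest gap among the members.

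At E10.5, 19 members were lower in ko yolk sacs (7.20%, against 3.16% of all genes) and 9 were higher (3.41%, against 4.12% of all genes). Beside the 7 shared with E9.0, the largest falls were of Zfp418 at -0.75 (adjusted p = 0.0411), Zfp772 at -0.74 (adjusted p = 0.0243) and Zfp994 at -0.70 (adjusted p = 0.00493). Zfp994 read 6.30, 6.20 and 5.95 in ko pools against 6.78, 7.03 and 6.74 in wt. Zfp942 read 8.23, 7.74 and 8.0 in ko against 8.57, 8.65 and 8.69 in wt, a change of -0.65 (adjusted p = 0.00709). Zfp110, an interactor of the p75 neurotrophin receptor also called NRIF, changed by -0.56 (adjusted p = 0.0147), and its 2 other probe sets by -0.57 and -0.53. The remaining lower members were Zfp455, Zfp229, Zfp943, Zfp202, Zfp820, Zfp472 and Zfp560, with changes from -0.54 to -0.44. A second, dimmer probe set gave 0.16 for Zfp943 and -0.01 for Zfp772. Zfp772 and Zfp455 were themselves dim, averaging 3.97 and 3.06 over the 12 arrays.

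The 9 higher members at E10.5 were led by Zfp979, which read 7.48, 7.25 and 7.61 in ko pools against 6.71, 6.80 and 6.67 in wt (0.72, adjusted p = 0.0104). At E9.0 its ko pools also lay above wt, at 0.61, without reaching the threshold (adjusted p = 0.0674). Zfp451 was described above, and the others were Zfp703 at 0.66 (adjusted p = 0.0361), Zfp189 at 0.64 (adjusted p = 0.0124), Zfp287 at 0.51 (adjusted p = 0.0184), Zfp503 at 0.45 (adjusted p = 0.0473), Zfp438 at 0.45 (adjusted p = 0.038), Zfp637 at 0.37 (adjusted p = 0.0295) and Zfp281 at 0.29 (adjusted p = 0.0459). Zfp703 and Zfp503 are related transcriptional corepressors of the NET family, and Zfp281 is a transcription factor studied in embryonic stem cells. The 3 other probe sets of Zfp287 gave -0.06 to -0.04. Zfp503 read 7.92, 7.58 and 7.61 in E10.5 ko pools against 7.27, 7.10 and 7.38 in wt, and measured -0.27 at E9.0.

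The E10.5 median member change was -0.03, against -0.01 over all genes, and 55.3% of members were negative against 52.6%. The ko and wt pools did not overlap for 49 members with ko lower (18.6%, against 11.3% of all genes) and for 26 with ko higher (9.85%, against 11.5%). The lower count was 9 without ko replicate 1 and 11 without wt replicate 1, 2 or 3, where 1.64% to 2.11% of all genes were lower. The higher count was 3 without ko replicate 1, wt replicate 1 or wt replicate 2, where 2.17% to 2.36% of all genes were higher, and 5 without E9.0 wt replicate 2, where 3.46% were. Replicates 1 and 2 alone gave 17 lower and 11 higher members, where 4.63% of all genes were lower and 4.22% higher. Calls kept without any 1 array numbered 10, namely Zik1, Zfp850, Zfp760, Zfp473, Zfp672, Zfp932, Zfp994, Zfp942, Zfp451 and Zfp979.

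At E9.0, 11 members were lower in ko yolk sacs (4.17%, against 0.632% of all genes) and 1 was higher (0.379%, against 0.55% of all genes). Besides the 7 above, the lower ones were Zfp629 at -0.59 (adjusted p = 0.0284), Zfp235 at -0.57 (adjusted p = 0.0225), Zfp938 at -0.57 (adjusted p = 0.0284) and Zfp946 at -0.51 (adjusted p = 0.0458). At E10.5 these 4 measured -0.17, -0.26, -0.30 and -0.31, with adjusted p from 0.118 to 0.456. A second, dimmer probe set of Zfp235 gave 0.04 at E9.0. The shift was also broad and small: 178 of the 264 members (67.4%) had a negative change, against 51.5% of all genes, and the median member change was -0.10 against -0.01 over all genes. The ko and wt pools did not overlap for 58 members with ko lower (22.0%, against 9.42% of all genes) and for 16 with ko higher (6.06%, against 8.56%).

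The E9.0 count of lower members depended on single arrays. It was 2 without ko replicate 1, ko replicate 3, wt replicate 1 or wt replicate 2, where 0.0934% to 0.176% of all genes were lower. It was 6 without wt replicate 3 and 7 without E10.5 wt replicate 1, where 0.297% and 0.407% of all genes were lower. Replicates 1 and 2 alone gave 3 lower members, where 0.126% of all genes were lower, and a median of -0.08. Replicate 3 alone gave a median of -0.12. Over all genes these medians were 0.005 and -0.04. Only the calls of Zik1 and Zfp672 were kept at E9.0 whichever array was left out. The higher call, of Zfp451, was lost without ko replicate 1 or wt replicate 1.

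**Figure D2:**
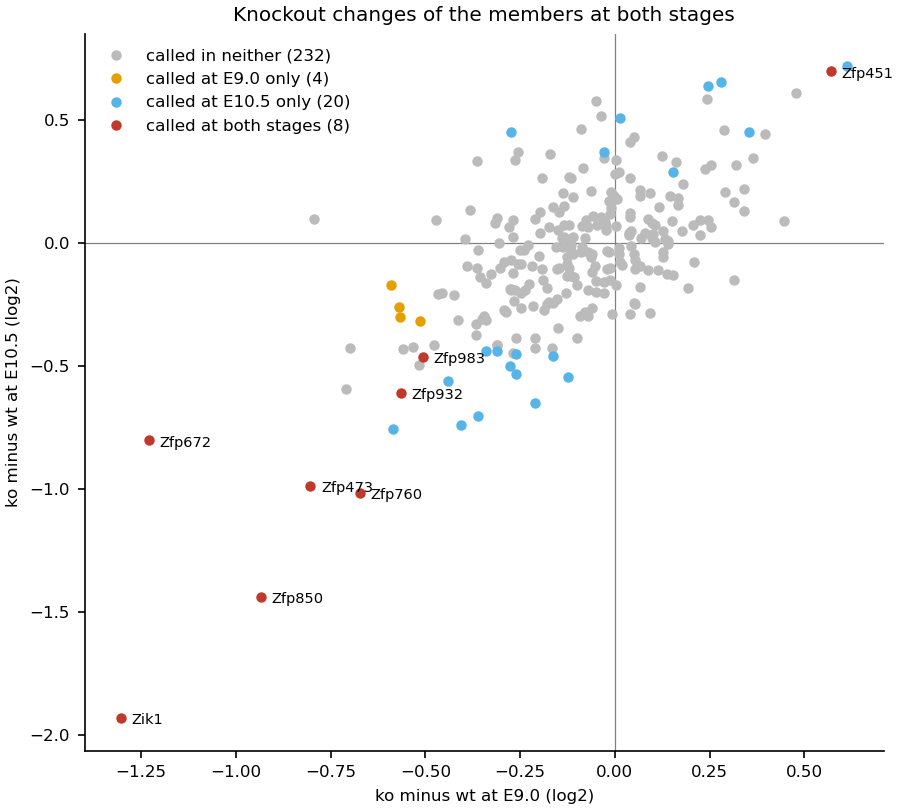
Log2 change, ko minus wt, at E9.0 and at E10.5 for each of the 264 members, with members called in 1 or both comparisons marked. Zik1, at -1.93 at E10.5 and -1.30 at E9.0, lies farthest from 0, and no member was called in opposite directions.

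The E9.0 and E10.5 knockout comparisons share no array. Across the 264 members the 2 sets of changes correlated with Pearson's r = 0.69 (Spearman's rho = 0.58), against r = 0.47 across all genes, a description over genes that are not independent replicates. Both changes were negative for 121 members (45.8%, against 33.1% of all genes). The difference between the knockout effects at the 2 stages was called for 0 members by limma, against 0.104% of all genes higher and 0.0824% lower at E10.5. At an unadjusted p under 0.05, 14 members had a more positive change at E10.5 and 6 a more negative one (5.30% and 2.27%, against 4.71% and 3.59% of all genes). The smallest unadjusted p among members was that of Zfp503, with a difference of 0.73 (adjusted p = 0.146).

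**Figure D3:**
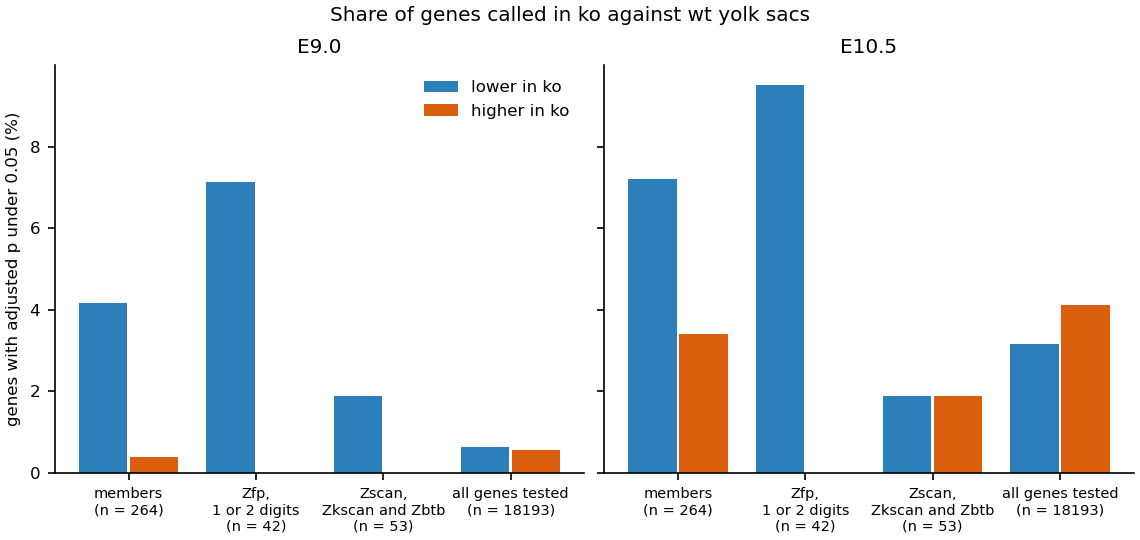
Percent of genes with an adjusted p under 0.05 that were lower (blue) or higher (orange) in ko than in wt yolk sacs at each stage, for the 264 members, 42 Zfp genes with 1 or 2 digits, 53 Zscan, Zkscan and Zbtb genes and all 18193 genes. At E9.0 the lower bars stand at 4.17% for members and 0.632% for all genes, and the higher bars at 0.379% and 0.55%.

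Some zinc finger genes outside the rule were also called. Of 42 genes named Zfp with 1 or 2 digits, Zfp28, Zfp54 and Zfp59 were lower at E9.0, and Zfp54, Zfp59, Zfp61 and Zfp81 at E10.5. Of 53 Zscan, Zkscan and Zbtb genes, Zscan18 was lower at both stages, at -0.77 at E10.5 and -0.83 at E9.0, and Zbtb12 was higher at E10.5. The lower shares were 9.52% of the first set and 1.89% of the second at E10.5, against 3.16% of all genes, and 7.14% and 1.89% at E9.0, against 0.632%. The higher share of the second set at E10.5 was 1.89%, against 4.12% of all genes. These names were taken up after their values were seen.

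Of 20 measured corepressor and silencing partners of KRAB zinc finger proteins, 0 were called at E9.0, against 0.632% of all genes lower and 0.55% higher, and 1 was lower at E10.5, against 3.16% lower and 4.12% higher. The 1 was Dnmt3a, a DNA methyltransferase that reads H3K36 methylation, with a change of -0.43 (adjusted p = 0.0411, and up to 0.161 when single arrays were left out). Trim28 changed by 0.14 at E10.5 (adjusted p = 0.573) and 0.05 at E9.0 (adjusted p = 0.93), and Setdb1 by 0.09 (adjusted p = 0.705) and -0.02 (adjusted p = 0.982). In a separate list of 21 measured writers, readers and erasers of H3K36 methylation, which does not hold Dnmt3a, 1 gene was called at each stage, and it was the targeted Setd2.

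Members were grouped by whether other members lie close by. Runs of at least 5 members, with no more than 5 other annotated protein-coding genes between neighbours, numbered 11 and held 80 members. In them 10 members (12.5%) were lower at E10.5 and 0 higher, and 4 (5.00%) were lower at E9.0 and 0 higher. The run from Zfp160 to Zfp945 held 7 of those 10 calls and 3 of those 4. In the other 65 members of such runs 3 (4.62%) were lower at E10.5 and 1 (1.54%) at E9.0. Of 74 members in runs of 2 to 4, 6 (8.11%) were lower and 3 higher at E10.5, and 4 (5.41%) were lower and 0 higher at E9.0. Of the 107 members with no member neighbour, 3 (2.80%) were lower and 6 (5.61%) higher at E10.5. At E9.0, 3 (2.80%) of them were lower and 1 (0.935%) higher. Over all genes 3.16% were lower and 4.12% higher at E10.5, and 0.632% were lower and 0.55% higher at E9.0. In runs of 5 or more 80.0% of members had a negative change at E9.0, and 75.4% when the longest run was set aside. The share was 74.3% in runs of 2 to 4, 53.3% without a neighbour and 51.5% over all genes. The medians, in that order, were -0.18, -0.14, -0.11, -0.01 and -0.01. Members in runs share sequence, and probe sets of similar copies can share probes. Of the 32 members called in either comparison, 1 was measured by a probe set with the suffix x, s or a. Such a suffix marks matches to more than 1 transcript, and 31 of the 264 members had it. Its absence does not show that no probe is shared.

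**Figure D4:**
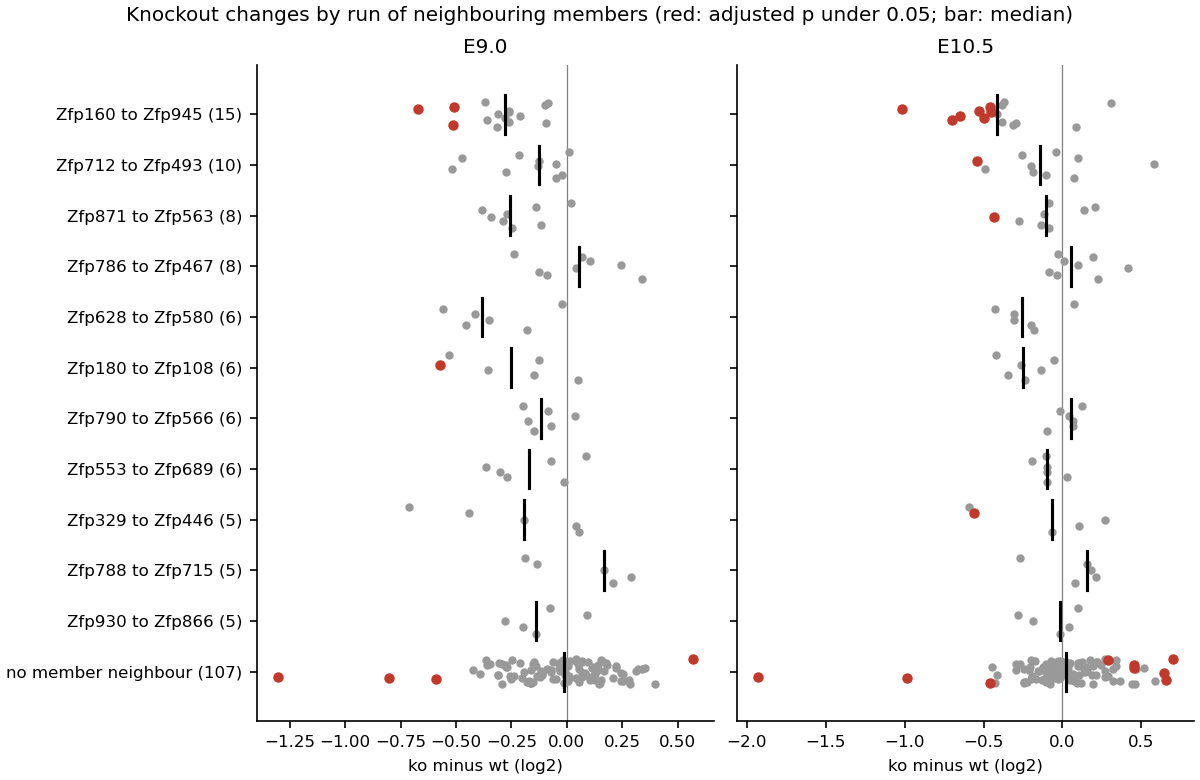
Log2 change, ko minus wt, of single members (points, red where the adjusted p was under 0.05) in each of the 11 runs, ordered by their number of members, and of the 107 members with no member neighbour, with bars at the medians. The 15 members of the run from Zfp160 to Zfp945 all lie below 0 at E9.0.

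The longest run, from Zfp160 to Zfp945, held 15 members, and all 15 had a negative change at E9.0, from -0.67 to -0.08. Zfp983, Zfp760 and Zfp946 were called there. At E10.5, 13 of 15 were negative, with a median of -0.41, and 7 were called, namely Zfp983, Zfp760, Zfp229, Zfp820, Zfp942, Zfp943 and Zfp994. The mean over the run was 7.12, 6.95 and 6.91 in E10.5 ko pools against 7.34, 7.35 and 7.50 in wt, and 6.55, 6.54 and 6.36 in E9.0 ko pools against 6.88, 6.80 and 6.69 in wt. Every ko pool mean lay below every wt pool mean. Of the genes between the members, 4 were measured (Zfp51, Zfp52, Zfp53 and Zfp54), all with negative changes at both stages, and Zfp54 was called at both.

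Other runs held fewer calls. The 10 members from Zfp712 to Zfp493 had 9 negative changes at E9.0 with none called, and Zfp455 alone of them was called at E10.5. Of the genes between these members 8 were measured, and all 8 had negative changes at E9.0 (median -0.34), with none called. At E10.5, 6 of the 8 were negative, and Rslcan18 and Zfp874b were called lower. The 6 members from Zfp628 to Zfp580 were all negative at E9.0 with a median of -0.38 and none called. The 5 from Zfp788 to Zfp715 had medians of 0.15 at E10.5 and 0.17 at E9.0, again with none called. Zik1 had no member neighbour by this rule, but the nearest members on one side were Zfp954, Zfp773, Zfp418 and Zfp772, with changes of -0.43, -0.33, -0.75 and -0.74 at E10.5 and -0.70, -0.37, -0.59 and -0.41 at E9.0. Zfp418 and Zfp772 were called at E10.5 and none of the 4 at E9.0. Zfp773 and Zfp772 were dim, averaging 3.95 and 3.97 over the 12 arrays. On the other side lay Zfp551, at 0.35 and -0.03, and Zfp606, at -0.16 and -0.34, with neither called. Of the 3 members within 20 Mb of Setd2, none was called. The shares over all genes were 3.16% lower and 4.12% higher at E10.5, and 0.632% and 0.55% at E9.0. At such shares 0 calls among 3 genes says little. In these bulk samples fewer cells of a type and less RNA per cell cannot be told apart.

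Between stages, 46 members were higher at E10.5 than at E9.0 in wt yolk sacs (17.4%, against 13.4% of all genes) and 18 were lower (6.82%, against 8.86%). In ko yolk sacs 56 were higher (21.2%, against 14.4%) and 19 lower (7.20%, against 9.17%). Zfp934 fell most in both genotypes. It read 9.0, 8.61 and 7.95 in ko pools at E10.5 against 10.58, 10.80 and 10.61 at E9.0, a change of -2.14 (adjusted p = 0.000129). In wt pools it read 8.81, 8.56 and 7.86 at E10.5 against 10.74, 10.90 and 10.52 at E9.0, a change of -2.31 (adjusted p = 7.67e-05). No pool of 1 stage reached the level of the other.

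In wt the largest rises were of Zfp943 (1.12), Zfp758 (1.02), Zfp994 (1.01), Zfp995 (0.97), Zfp748 (0.91) and Zfp708 (0.90), and the other large falls were of Zfp626 (-1.03), Zfp608 (-0.69), Zfp574 (-0.64), Zfp142 (-0.63) and Zfp141 (-0.60). Zfp943, Zfp758, Zfp994 and Zfp995 belong to the run from Zfp160 to Zfp945, where 11 of 15 members rose in wt. In ko the largest rises were of Zfp189 (1.07), Zfp383 (1.06), Zfp606 (1.05), Zfp867 (0.94), Zfp938 (0.93) and Zfp810 (0.91), and the other large falls were of Zfp850 (-0.66), Zfp574 (-0.66), Zfp710 (-0.60), Zfp982 (-0.59) and Zfp687 (-0.58). Both genotypes shared 33 members higher at E10.5 (background 9.25%) and 9 lower (background 5.65%). Without single arrays the count of lower members went down to 10 in wt, without E9.0 wt replicate 1 or 2, and to 9 in ko, without E10.5 ko replicate 2. Of all genes 6.02% and 5.77% were then lower in wt, and 5.74% in ko. These stage comparisons use the same arrays as the knockout comparisons.

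**Figure D5:**
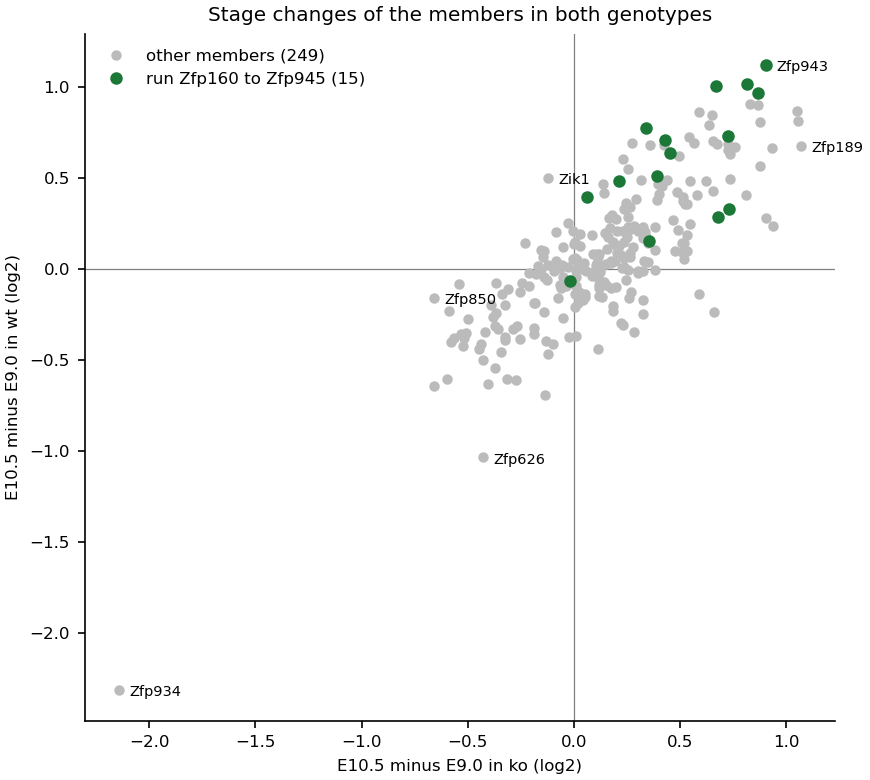
Log2 change, E10.5 minus E9.0, of each of the 264 members in ko (horizontal axis) and wt (vertical axis) yolk sacs, with the 15 members of the run from Zfp160 to Zfp945 in green. Zfp934 stands apart at -2.14 in ko and -2.31 in wt.

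The 264 members averaged from 2.38 to 11.2 over the 12 arrays, with 135 above the median gene. The highest were Zfp622, a ribosome biogenesis factor, Zfp207, a spindle protein, Zfp568, Zfp330 and Zfp106. The lowest were Zfp616, Zfp735, Zfp558, Zfp389 and Zfp980. None of these 10 was called in a knockout comparison. Few of all genes were, with 3.16% lower and 4.12% higher at E10.5, and 0.632% and 0.55% at E9.0. Levels of different probe sets are not on a common scale. Zfp568, a KRAB protein known to silence a placental Igf2 transcript, changed by 0.07 at E10.5 (adjusted p = 0.854) and -0.07 at E9.0 (adjusted p = 0.924). Zfp809, which silences retroviruses through Trim28, changed by -0.23 (adjusted p = 0.311) and -0.27 (adjusted p = 0.407). Zfp207 changed by -0.01 at E10.5 and 0.04 at E9.0, Zfp335 by -0.16 and -0.03, and the GC-rich DNA binder Zfp148 by 0.34 and 0.00. Other probe sets of 2 of these genes disagreed: at E10.5 the 5 of Zfp148 gave -0.70 to 0.10 and the 5 of Zfp207 gave -0.02 to 0.71. Of members with roles in development, Zfp423 changed by 0.59 at E10.5 (adjusted p = 0.059) and Zfp521 by 0.52 (adjusted p = 0.269).

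Cell type markers moved with genotype at E10.5. Every ko array mean of the 9 visceral endoderm markers lay below every wt one (12.46 to 12.60 in ko against 12.66 to 12.74 in wt), with a median change of -0.18 and Cubn lower (-0.36, adjusted p = 0.0353). Parietal endoderm array means were 10.2 to 10.4 in ko against 9.50 to 9.83 in wt, with Krt19 of 7 markers higher. Of 8 macrophage markers Csf1r, Cx3cr1 and Tyrobp were higher and Fcgr3 was lower at -1.82, with array means of 6.70 to 7.01 in ko against 6.73 to 6.85 in wt. Of 6 trophoblast and decidua markers Plac1 was higher. Of 10 embryo proper markers 4 were higher in ko pools (Myl7, Sox11, Crabp1 and Tnnt2), with an array mean of 5.11 to 5.78 in ko against 4.03 to 4.35 in wt, and 4 of the 10 averaged under 4. Vim, Acta2, Tagln and Wt1 of 10 mesenchyme markers were higher, with array means of 10.3 to 10.9 in ko against 10.1 to 10.3 in wt. Endothelial array means were 7.88 to 8.40 in ko against 7.46 to 7.85 in wt, and Pecam1 and Icam2 were higher. Primitive erythroid array means were 9.56 to 10.4 in ko against 10.4 to 10.6 in wt, with Epb42 and Rhd lower. Of the markers named at E10.5, Myl7, Tnnt2, Crabp1, Vim, Acta2, Krt19, Cx3cr1 and Fcgr3 kept their calls without any 1 array. At E9.0 only the macrophage markers Cd68 (higher) and Tyrobp (lower) were called. Their adjusted p rose to as much as 0.0584 and 0.204 when single arrays were left out. Other E9.0 markers moved without reaching the threshold. Fcgr3 changed by -0.88 (adjusted p = 0.0506), Tnnt2 by -1.03 (adjusted p = 0.235) and Tagln by 0.61 (adjusted p = 0.258), each with no overlap of pools. Krt19 changed by 0.67 (adjusted p = 0.184), Myl7 by -1.04 (adjusted p = 0.524) and Sox11 by 1.04 (adjusted p = 0.537). Parietal endoderm array means at E9.0 were 10.1 to 11.6 in ko and 10.1 to 10.7 in wt. The 11.6 was that of ko replicate 3, where Lama1 read 11.86 against 9.31 and 9.12 in the other ko pools. The part of these shifts in the members' results was not tested at either stage.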

How the data were processed

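Expression was measured on 12 single-colour arrays, 3 per genotype and stage. The deposited log2 values come from RMA, according to the authors (per the submitters' processing notes; version not given in the sources used here). With no detection call and no depth, precision is set by how many arrays there were. Of 45101 probe sets, 64 controls were left out and 34945 naming 1 gene symbol in the platform annotation were used. The probe set with the highest 12-array mean stood for each of 18193 genes, of which 9010 had more than 1.

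A model with 1 mean per group was fitted with limma 3.58.1 in R 4.3.3, with empirical Bayes moderation, two-sided tests and Benjamini-Hochberg adjustment at 0.05 over all genes. It was tested on simulated data. Named genes were the called members with the largest changes, those called at both stages, the highest and lowest members, and a list of known ones. Members and lists were chosen with earlier results of these data known. Replicate numbers, taken from the sample titles, did not pair the samples. Alternatives left out each array, blocked on replicate or batch, and changed the normalisation, filter and choice of probe set. Gene order and promoters came from RefSeq tables of GRCm38.p6; the files name no build, so no other coordinates are given. Protein sequences were not used here.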

Additional observations from a re-analysis of the deposited data

How the results depend on the processing

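The median member change and the Setd2 change kept their direction under all alternatives run, and no called member reversed sign in a knockout comparison. At E9.0 the 11 lower members became 4 when only genes above the median level were tested, which removes dimmer members and leaves 135. All 5 of the E9.0 calls among those 135, lower or higher, were kept. Of all genes so tested 0.902% were lower. The 11 became 18 with replicate 3 against 1 and 2 as a batch block, and 3 with replicates 1 and 2 only. Over all genes 1.38% and 0.126% were lower in those settings. The 1 higher member became 0 with the mean of all probe sets and 0 with replicates 1 and 2 only. Over all genes 0.489% and 0.253% were then higher. At E10.5 the 9 higher members became 14 with the replicate number as a block and 15 with the batch block. Over all genes 5.33% and 6.16% were higher in those settings. Leaving out 1 array at a time gave 2 to 12 lower and 0 to 1 higher members at E9.0. Over all genes 0.0934% to 0.803% were then lower and 0.0879% to 0.792% higher. At E10.5 it gave 9 to 20 lower and 3 to 11 higher members, against 1.64% to 4.5% and 2.17% to 4.46% of all genes. Between stages it gave 10 to 23 lower members in wt and 9 to 24 in ko, against 5.35% to 10.3% and 5.74% to 11.6% of all genes. With the replicate block 15 members were lower and 1 higher at E9.0, and 25 were lower at E10.5. Over all genes that block gave 1.08% lower and 0.841% higher at E9.0, and 4.64% lower at E10.5. The deviations of same-numbered ko and wt arrays correlated at 0.03 to 0.24 at E9.0 and 0.07 to 0.40 at E10.5. Those of differently numbered ko and wt arrays correlated at -0.36 to 0.26 and at -0.35 to 0.17. The mean of all probe sets kept 8 of 12 calls at E9.0 and 18 of 28 at E10.5. The causes of these changes were not tested.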
